A study of Rattus norvegicus with 42 samples.

Results

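The genes described here encode 6 subunits of the GABA-A receptor, the alpha subunits Gabra2 and Gabra3, the beta subunits Gabrb1 and Gabrb2 and the gamma subunits Gabrg1 and Gabrg3. They were taken by symbol from the table of estimated counts. All 6 were found, each as 1 RefSeq transcript, among 15516 transcripts, and all 6 were among the 13062 transcripts with enough counts to be tested. A further 12 GABA-A receptor subunit genes were in the table, and the 6 members are therefore a part of the family.

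The GABA-A receptor is a chloride channel made of a ring of subunits that opens when GABA binds. The beta subunits carry one face of the GABA site, and the alpha subunits carry the other face and set the affinity and kinetics of the channel. A gamma subunit next to an alpha subunit forms the benzodiazepine site and holds the receptor at the synapse. Phenobarbital acts on this receptor and lengthens the opening of its channel, while levetiracetam binds the vesicle protein SV2A. In the developing hippocampus the subunit makeup shifts during the first weeks after birth, with the alpha-2 and alpha-3 subunits typical of the immature brain. These proteins are usually placed at synapses, but RNA of whole tissue carries no information on their location, so the label "synaptic" could not be checked here.

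Hippocampal RNA of male Sprague Dawley rat pups was sequenced, with 1 library per animal. Pups received 1 intraperitoneal injection on postnatal day 7 of saline (VEH, 13 animals), phenobarbital at 75 mg/kg (PB, 14 animals) or levetiracetam at 200 mg/kg (LEV, 14 animals), and tissue was taken 72 hours later. Both drugs are used against seizures, but these pups had none induced. A VEH animal marked as excluded in its label (animal 7) was left out of the main comparisons. The paper gives its sequencing coverage as the reason, with average coverage well above and genomic coverage well below those of the other samples. The sample codes take 2 forms, for animals 1 to 6 and for animals 7 to 14 of each group, and these 2 series were treated as a batch, although the labels do not say what the form of code stands for.

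Totals ran from 9499494 to 14488125 estimated counts per animal, with a median of 11319119. All values below are normalized counts, that is, counts scaled to the mean effective library size of 11405252. Between the 2 series 30.2% of all tested transcripts passed an adjusted p of 0.05, and markers of thalamus, choroid plexus and muscle were present at levels that varied between animals. The study's tissue is hippocampus, and no marker of any cell type list used here was at 0 in every animal.

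The members are spread over 4 chromosomes. In the rn6 coordinates of the count table, Gabrg1 lay at chr14:39964588-40049343, next to Gabra2 at chr14:39662441-39798929 and Gabrb1 at chr14:38643383-39112593. Gabrb2 lay at chr10:27975353-28187369, Gabrg3 at chr1:112158530-112811955 and Gabra3 at chrX:152415134-152642539. Gabra4, a subunit that is no member, is at chr14:39154541-39229129 between Gabrb1 and Gabra2.

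Gabrg1 was the member on which the comparison of PB with VEH turned, and its promoter is shown for that reason. The sequence is from RefSeq on the GRCr8 build, another build than that of the counts, and covers the 250 bases before the gene's start on the plus strand, chr14:37750042-37750291. Capitals mark the 2 copies of the CCAAT box, which appear as its reverse complement ATTGG.

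Gabrg1: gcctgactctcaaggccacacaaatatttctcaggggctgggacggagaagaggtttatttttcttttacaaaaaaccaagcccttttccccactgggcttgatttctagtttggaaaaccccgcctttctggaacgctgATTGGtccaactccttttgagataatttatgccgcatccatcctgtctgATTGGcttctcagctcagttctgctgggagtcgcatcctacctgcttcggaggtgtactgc

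The 2 copies end 106 and 57 bases before the start. CCAAT was searched on both strands after this sequence had been seen, and 37.5% of 33469 rat promoters of 300 bases (250 before and 50 after the start) hold it. Promoters of 5 of the 6 members were matched. CCAAT also occurred 1 time each in the windows of Gabra3 and Gabrb1 and not in those of Gabrb2 and Gabrg3. The TATA box TATAAA, present in 14.2% of promoters, was found in Gabra3 alone, and the E-box CANNTG, present in 72.1%, in Gabrg3 alone with 3 copies. The short cyclic AMP response element TGACG (21.2% of promoters), its full form TGACGTCA (1.83%), the EGR site GCGNGGGCG (4.98%) and the AP-1 site TGANTCA (7.33%) were in none of the 5 windows. Base composition differed widely, from 39.3% G and C with 0 CG dinucleotides in Gabra3 to 76.7% with 37 in Gabrg3. Gabrg1 lay near the median of all promoters, with 48.7% G and C against 51.7% and 6 CG dinucleotides against 7.

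To see whether a single dose of PB altered the receptor's subunits, each was compared between the PB and VEH groups. Gabrg1 fell after PB. None of the other 5 members passed the test. Of the 6 members 1 had an adjusted p under 0.05, where 5.39% of all 13062 transcripts did. That member was lower after PB, as were 3.46% of all transcripts. It was also the 1 member with an unadjusted p under 0.05, which 20.2% of all transcripts had. No member passed the study's second limit, a change the size of a 25% increase or its inverse in addition to the adjusted p, which 0.605% of all transcripts met. The median log2 fold change of the members was -0.02, and that of all transcripts 0.00462. The members' median size of change, without its sign, was 0.0642 against 0.0702. Of the members 4 were lower and 2 higher after PB.

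**Figure D1:**
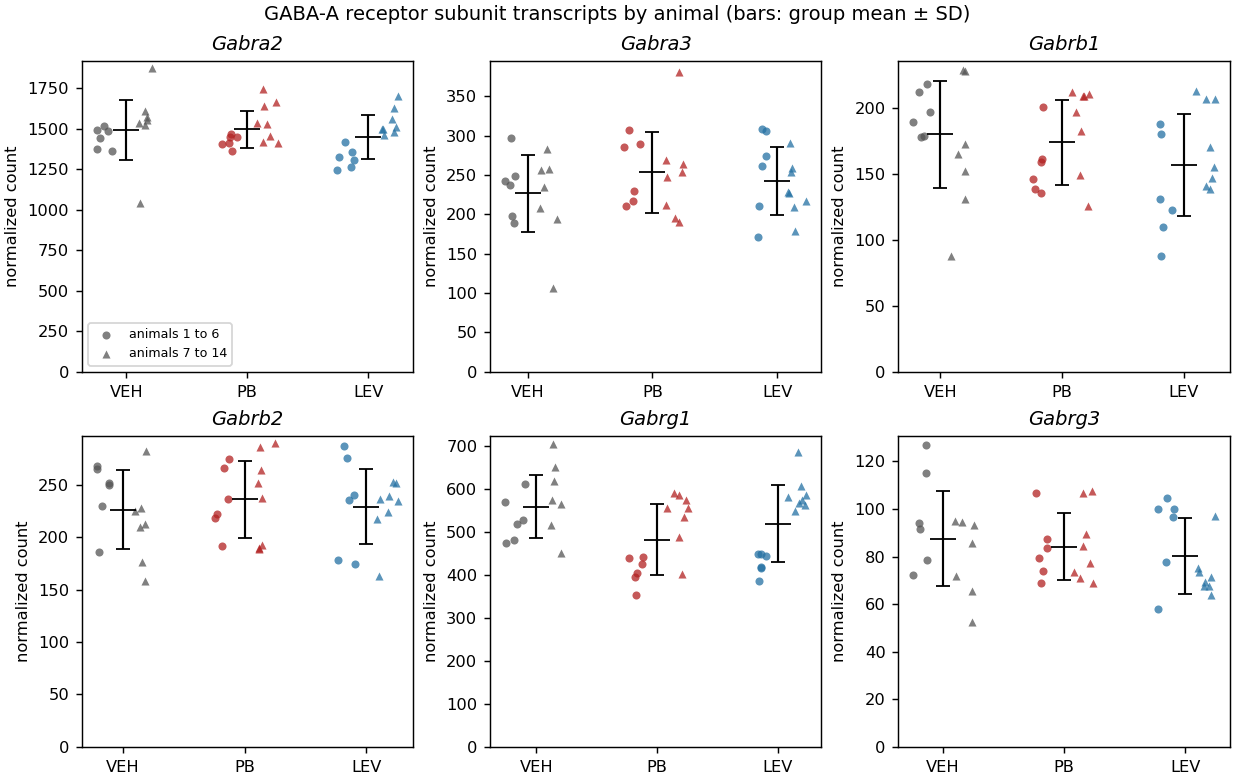
Normalized counts (vertical axes, from 0) of the 6 subunits in each VEH, PB and LEV animal. Circles are animals 1 to 6, triangles animals 7 to 14, and black bars the group mean ± SD. In the Gabrg1 panel the highest PB and LEV circles, at 442.1 and 449.2, lie below the lowest VEH circle at 474.3, while the triangles of the 3 groups overlap.

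Gabrg1 encodes gamma-1, a gamma subunit found in few neurons and in glia. It ranged from 452.2 in VEH animal 9 to 705.7 in VEH animal 13, with a median of 565. After PB the lowest value was 353.9 (animal 2), the median 465.3 and the highest 591.2 (animal 11). The groups overlapped, but 7 of 14 PB animals lay below the lowest VEH animal, and 12 of 14 below the VEH mean of their own series. The means were 482.3 ± 82.3 (SD, n = 14) after PB and 559.2 ± 74.0 (SD, n = 13) after saline. With the series in the model Gabrg1 fell by 0.24 on the log2 scale (SE 0.06, 95% interval -0.36 to -0.11, edgeR quasi-likelihood test, Benjamini-Hochberg adjusted p = 0.0157), or by 15.2%. It ranked 277 of 13062 transcripts by p. In bulk tissue fewer cells that express a gene and less RNA per cell cannot be told apart. The call was lost when the series was left out of the model (log2 -0.21, adjusted p = 0.164) and when the excluded VEH animal, in which Gabrg1 stood at 292.3, was put back (log2 -0.18, adjusted p = 0.223). With any 1 of the other VEH or PB animals left out it held in 27 of 27 fits, with adjusted p from 0.00331 to 0.0334.

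Gabrg3 encodes the other gamma subunit of the set, and it had the fewest counts of the members, a figure that also depends on transcript length. VEH animals ran from 52.55 to 126.9 with a median of 91.55, and PB animals from 68.76 to 107.4 with a median of 81.69. The PB range lay wholly inside the VEH range. The log2 difference was -0.04 (95% interval -0.25 to 0.17, adjusted p = 0.872 by edgeR).

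The alpha subunits were not called. Gabra2, the alpha-2 subunit of receptors on the axon initial segment of pyramidal cells, was the least variable member, with a coefficient of variation of 9.79% over the 41 animals. It ran from 1043 to 1877 (median 1518) after saline and from 1362 to 1746 (median 1455) after PB. The fitted change was close to nil, with a log2 difference of -0.0014 and a 95% interval of -0.10 to 0.09 (edgeR adjusted p = 0.992), which runs from 0.935-fold to 1.067-fold. Gabra3 encodes alpha-3, a subunit abundant in the newborn forebrain. Its values ran from 106.2 to 296.6 (median 237.4) in VEH and from 190.2 to 380.9 (median 250.3) in PB animals, so that the ranges overlapped over most of their length. Its log2 difference of 0.16 (95% interval -0.06 to 0.39, edgeR adjusted p = 0.425) was larger than that of the other members that were not called, and its interval reaches 1.306-fold. Its highest of the 41 animals was 3.59 times its lowest, and its coefficient of variation of 20% was below the 22% of Gabrb1.

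The beta subunits, which every common receptor needs, were not called either. Gabrb1 ran from 88.0 to 228.4 (median 178.3) in VEH and from 125.7 to 211.7 (median 171.7) in PB animals, and 7 of 14 PB animals were on each side of the VEH mean of their series. Its log2 difference was -0.06 (95% interval -0.30 to 0.18, edgeR adjusted p = 0.83). Gabrb2 ran from 158.6 to 282.4 (median 227.9) in VEH and from 189 to 289.7 (median 236.6) in PB animals, and its difference was 0.07 (95% interval -0.11 to 0.24, edgeR adjusted p = 0.728).

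**Figure D2:**
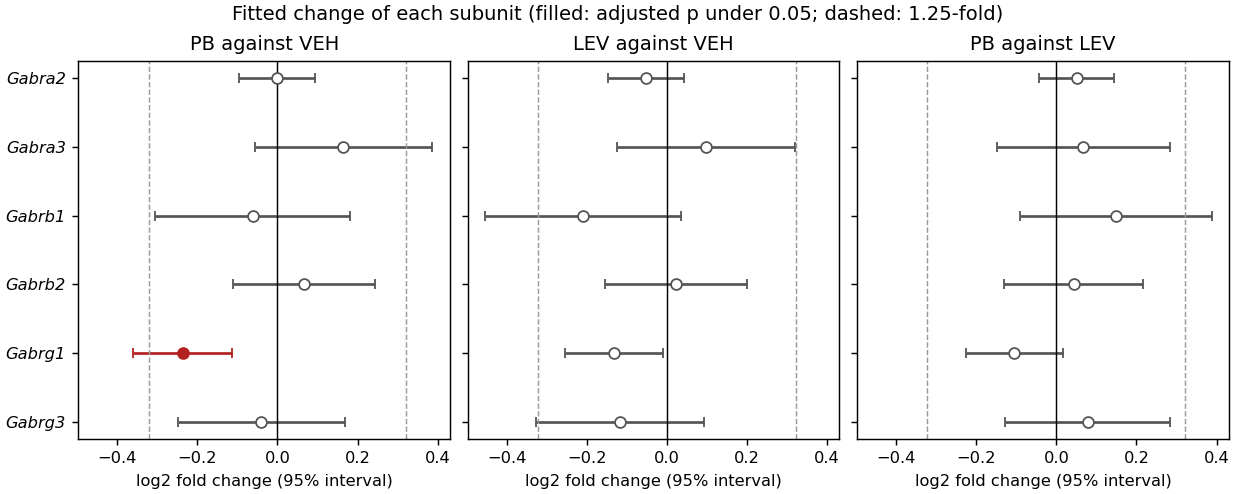
Log2 fold change (horizontal axis) of each subunit in the 3 comparisons, with 95% intervals. Dashed lines mark the study's fold limit, a 25% increase and its inverse, and a filled point an adjusted p under 0.05. Gabrg1 in PB against VEH, at -0.24, is the single filled point, and it lies inside the dashed lines.

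LEV, which has another primary target, was compared with the same VEH animals, so that the comparisons of the drugs with VEH share their controls. None of the 6 members was called by edgeR, where 1 of all 13062 transcripts was (0.00766%). At an unadjusted p under 0.05 there was 1 member, Gabrg1, where 5.84% of all transcripts passed, and DESeq2 gave 10 called transcripts and no member. Gabrg1 ran from 385.9 (animal 5) to 687 (animal 11) after LEV, with a median of 555.2 close to that of VEH. Below the lowest VEH animal lay 6 of 14 LEV animals. These were animals 1 to 6, at 385.9 to 449.2, while LEV animals 7 to 14 lay at 548 or above. Its log2 difference was -0.13 (95% interval -0.25 to -0.01, edgeR p = 0.0346, adjusted p = 0.822). Gabrb1 ran from 87.78 to 212.7 (median 151.2), and 10 of 14 LEV animals were below the VEH mean of their series. Its log2 difference was -0.21 (95% interval -0.45 to 0.03, edgeR adjusted p = 0.856). The remaining members differed from VEH by between -0.12 (Gabrg3) and 0.10 (Gabra3), with adjusted p from 0.932 to 0.989. The median log2 difference of the members was -0.08 and that of all transcripts 0.000329, and the median sizes were 0.108 and 0.045.

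The direct comparison of PB with LEV called no member by edgeR, where 4.45% of all transcripts were called, and no member had an unadjusted p under 0.05, which 19.6% of all transcripts had. DESeq2 called no member either. Gabrg1 was lower after PB than after LEV by a log2 difference of -0.10 (95% interval -0.23 to 0.02, adjusted p = 0.339). A fall of Gabrg1 that belongs to PB and not to LEV was therefore not shown. The other 5 members were higher after PB than after LEV, with log2 differences from 0.04 in Gabrb2 to 0.15 in Gabrb1 and adjusted p from 0.527 to 0.834.

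The series of animals were then taken apart, since the Gabrg1 level itself differed between them. Gabrg1 averaged 569.1 in animals 7 to 14 and 456.2 in animals 1 to 6, a log2 difference of 0.33 (SE 0.05, edgeR adjusted p = 1.97e-06) that was larger than its change after PB. Gabra2 was higher in animals 7 to 14 as well, with 1543 against 1397 and a log2 difference of 0.14 (edgeR adjusted p = 0.00376). The other 4 members did not pass, with values from -0.18 (Gabrg3) to 0.12 (Gabrb1). The 2 of 6 members called are close to the 30.2% of all transcripts that passed between the series.

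Within animals 1 to 6 Gabrg1 was low after both drugs. The VEH animals of this series lay between 474.3 and 611.4, the 6 PB animals between 353.9 and 442.1, and the 6 LEV animals between 385.9 and 449.2. Neither drug group overlapped with VEH, and both were set against the same 6 VEH animals. The share of all transcripts without overlap in this series was not counted, so the separation is not shown to be unusual. The log2 difference was -0.37 (SE 0.08) for PB and -0.31 (SE 0.08) for LEV, with edgeR adjusted p of 0.0582 and 0.0462 from a model of both series with a term for each treatment in each. An edgeR fit of these animals alone gave adjusted p of 0.0157 and 0.0137, and it called 64 transcripts for PB and 346 for LEV. In animals 7 to 14 the groups overlapped. VEH animals of that series lay between 452.2 and 705.7, PB animals between 401.4 and 591.2, and LEV animals between 548 and 687. The log2 differences were -0.12 (SE 0.07, edgeR adjusted p = 0.354) for PB and 0.01 (SE 0.07, adjusted p = 0.981) for LEV.

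Gabrb1 had a like division. In animals 1 to 6 its mean was 195.5 ± 16.8 (SD, n = 6) after saline, 156.8 ± 23.9 after PB and 136.5 ± 39.6 after LEV. The log2 differences there were -0.32 (SE 0.17) for PB and -0.51 (SE 0.17) for LEV, neither called by edgeR (adjusted p = 0.563 and 0.141). In animals 7 to 14 they were 0.17 and 0.05.

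Whether a drug's difference itself differed between the series was tested with an interaction term. Of 18 such tests on the members 4 had an unadjusted p under 0.05, for Gabrg1 and Gabrb1 in both drugs, and none passed after adjustment over all transcripts. Over all transcripts 0.0689% passed for PB against VEH and 0.842% for LEV against VEH. The difference between the series in log2 fold change was 0.25 for Gabrg1 after PB (edgeR p = 0.0324, adjusted p = 0.403) and 0.33 after LEV (p = 0.00596, adjusted p = 0.165). For Gabrb1 it was 0.48 after PB (p = 0.0409, adjusted p = 0.432) and 0.56 after LEV (p = 0.0186, adjusted p = 0.272).

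**Figure D3:**
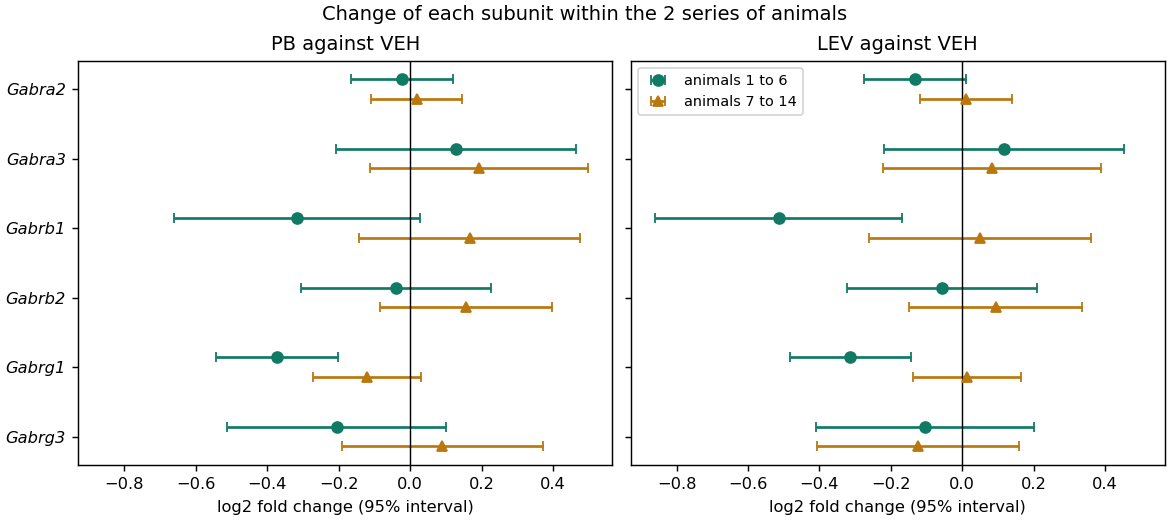
Log2 fold change (horizontal axis, with 95% intervals) of each subunit against VEH within animals 1 to 6 (circles) and animals 7 to 14 (triangles), for PB and for LEV. The Gabrg1 circles lie at -0.37 and -0.31 with intervals below 0, and the intervals of the triangles span 0 for all 6 subunits.

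Subunits of a class can replace each other in a receptor, so the balance of each pair was followed in every animal, without a test. Counts grow with transcript length, so the size of a ratio is not a ratio of molecules and it was compared between animals only. The median log2 ratio of Gabrb1 to Gabrb2 was -0.31 after saline, -0.43 after PB and -0.59 after LEV, with ranges of -1.25 to 0.03, -0.80 to 0.16 and -1.13 to -0.14. The ranges overlapped over most of their length. The 6 LEV animals of the first series, at -1.13 to -0.51, included the lowest LEV values, but the lowest value of all, -1.25, was in VEH animal 9. The ratio of Gabrg1 to Gabrg3 had medians of 2.64 after saline, 2.48 after PB and 2.86 after LEV. The LEV median was 2.14 for animals 1 to 6 but 3.04 for animals 7 to 14. The same direction was seen after saline (2.51 and 2.80) and after PB (2.38 and 2.65). The ratio of Gabra2 to Gabra3 had medians of 2.65 after saline, 2.65 after PB and 2.55 after LEV, and its highest value, 3.87, was in a VEH animal.

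**Figure D4:**
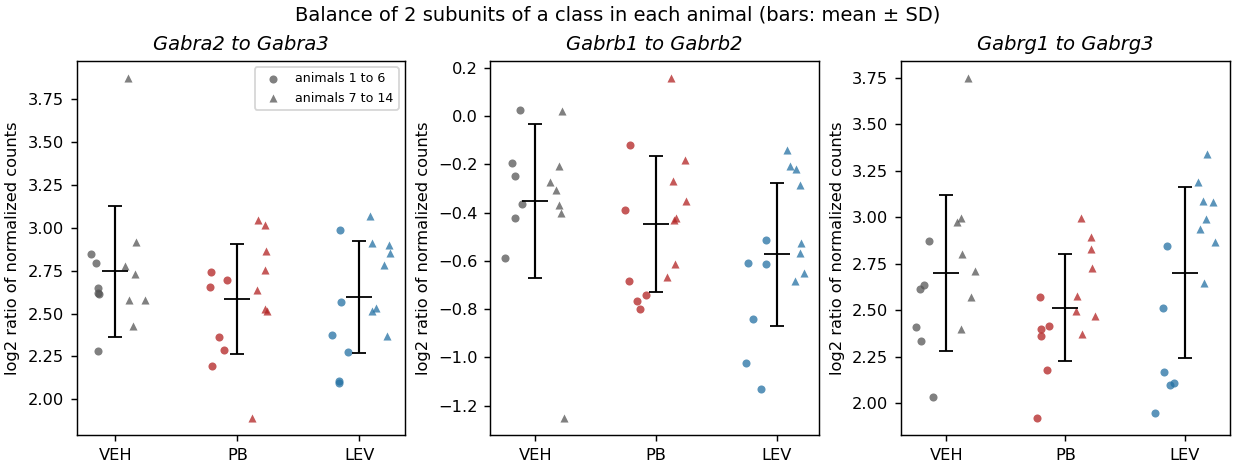
Log2 ratio of normalized counts (vertical axes, not starting at 0) of 2 subunits of a class in each animal. Circles are animals 1 to 6, triangles animals 7 to 14, and bars the mean ± SD. For Gabrg1 to Gabrg3 the LEV circles and triangles overlap little, with medians of 2.14 and 3.04, and every group's range overlaps with the others.

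Several pairs of members also varied together from animal to animal. The share of other transcript pairs that do so was not counted, so this is not shown to be particular to the subunits. After the means of treatment and series had been removed from the log2 CPM (counts scaled to library size), 15 pairs were correlated over the 41 animals with permutation tests adjusted over the 15. The pair Gabra3 and Gabrg3 had a Pearson r of 0.654 (permutation p = 1e-05, the smallest that 100000 resamples can give, adjusted p = 7.5e-05) and a Spearman rho of 0.51 (permutation p = 8e-04, adjusted p = 0.004). It was 0.516 without the 2 animals farthest from the median of Gabra3, and 0.755 and 0.603 within the series. In every pair the 2 animals left out were those farthest in the gene named first. Gabrb2 and Gabrg3 had r = 0.624 (permutation adjusted p = 7.5e-05) and rho = 0.593 (permutation adjusted p = 0.00045), with 0.614 without 2 animals and 0.608 and 0.641 within the series. Gabra3 and Gabrb2 had r = 0.565 and rho = 0.489 (permutation adjusted p = 0.00045 and 0.00518), 0.497 without 2 animals and 0.701 and 0.49 within the series.

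Gabrb1 and Gabrb2 had r = 0.563 and rho = 0.608 (permutation adjusted p = 0.000638 and 0.00045), 0.589 without 2 animals and 0.577 and 0.555 within the series. Gabrb1 and Gabrg3 passed with lower values (r = 0.358, rho = 0.395, permutation adjusted p = 0.0407 and 0.0342), with 0.36 without 2 animals and 0.46 and 0.287 within the series. Gabrb2 and Gabrg1 passed by rho alone (r = 0.307, rho = 0.365, permutation adjusted p = 0.0833 and 0.0463), with 0.266 without 2 animals and 0.314 and 0.306 within the series. The pairs among Gabra2, Gabrb1 and Gabrg1, which lie on chromosome 14, had lower values once 2 animals were left out. Gabra2 and Gabrb1 had r = 0.571 and rho = 0.335 (permutation adjusted p = 0.0011 and 0.055), which fell to 0.305 without 2 animals, and the series gave 0.249 and 0.697. Gabra2 and Gabrg1 had r = 0.494 and rho = 0.36 (permutation adjusted p = 0.00375 and 0.0463), 0.266 without 2 animals, and 0.432 and 0.529 within the series. Gabrb1 and Gabrg1 had r = 0.527 and rho = 0.349 (permutation adjusted p = 0.0011 and 0.0478), 0.37 without 2 animals, and 0.371 and 0.609 within the series. Gabra3 and Gabrg1 had r = -0.103 (permutation adjusted p = 0.555).

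**Figure D5:**
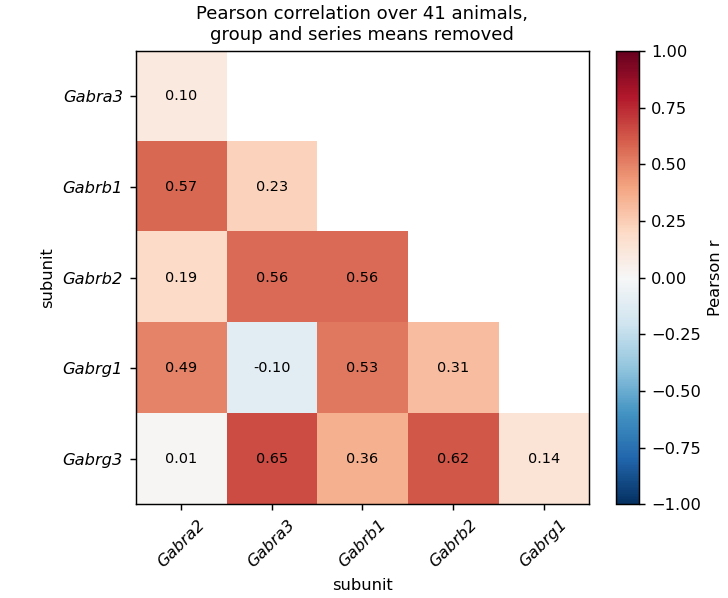
Pearson correlation of each pair of subunits over 41 animals with the means of treatment and series removed (colour scale from -1 to 1, r printed in each square). Gabra3, Gabrb2 and Gabrg3 are joined by values of 0.56 to 0.65, and Gabrg1 with Gabra3 is at -0.10.

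The same measure was taken against the mean of each marker list, with 72 relations of 6 members and 12 lists. Markers of neocortex (Rorb, Cux2 and Tbr1) went with Gabra3 (r = 0.589, rho = 0.481, permutation adjusted p = 0.0024 and 0.02), with Gabrb2 (r = 0.588, rho = 0.623, permutation adjusted p = 0.00216 for both) and with Gabrg3 (r = 0.585, rho = 0.473, permutation adjusted p = 0.0024 and 0.0257). Without the 2 animals farthest from the median of the marker mean these were 0.559, 0.684 and 0.53, and within the series from 0.547 to 0.702. Gabrg1 went with astrocyte markers (r = 0.499, rho = 0.49, permutation adjusted p = 0.0101 and 0.018), with 0.42 without 2 animals and 0.797 and 0.328 within the series. The astrocyte mean was taken over 19 transcripts, many of them of Aqp4, Slc1a3 or Slc1a2, so these genes weigh more in it. Gabrb1 went against endothelial markers (r = -0.553, rho = -0.504, permutation adjusted p = 0.00288 and 0.018), with -0.496 without 2 animals and -0.611 and -0.517 within the series. In 2 further relations Spearman's rho passed and Pearson's r did not, Gabra3 with neuron markers (rho = 0.514, permutation adjusted p = 0.018, r = 0.402, permutation adjusted p = 0.0927) and Gabrb1 with neocortex markers (rho = 0.455, permutation adjusted p = 0.0305, r = 0.374, permutation adjusted p = 0.121). The other relations passed by neither measure. Whether cell or tissue makeup plays a part in the members' differences was not tested.

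Those lists were set beside the Gabrg1 result. For all the counts that follow, 5.39% of all transcripts were called after PB in either direction and 3.46% were called lower. Of 19 astrocyte transcripts of 10 genes 1 rose after PB (Gfap, the intermediate filament of astrocytes, log2 0.32, edgeR adjusted p = 0.00241) and 2 fell (Aldoc and a transcript of the glutamate transporter Slc1a3). An unadjusted p under 0.05 was found for 5 of the 19. Many of the 19 are transcripts of Aqp4, Slc1a3 or Slc1a2, and Aqp4 fills 2 entries with the same values. Their summed level was 44360 to 55380 after saline, 42570 to 55140 after PB and 38430 to 53790 after LEV. None of the 5 markers of oligodendrocyte precursors, another glial type, was called and 0 had an unadjusted p under 0.05, with sums of 7581 to 8689, 6642 to 8435 and 6867 to 8936. Of 9 GABA neuron transcripts 3 fell after PB (Sst, Slc32a1 and Pvalb), all 9 had a negative sign and 8 an unadjusted p under 0.05, beside 3.46% of all transcripts called lower and 20.2% with such a p. Npy fills 2 of the 9 entries with the same values. The sums of the list were 5529 to 7835 after saline, 4634 to 7345 after PB and 6329 to 8089 after LEV. Of 3 tested thalamus markers 2 rose (Tcf7l2 and Prkcd), with sums of 273 to 397.6, 312.2 to 578.6 and 320.9 to 526. None of the 3 neocortex markers was called (1 had an unadjusted p under 0.05), with sums of 1159 to 1956, 1338 to 2384 and 1402 to 2424. In the other lists, none of 7 transcripts of neurons, 6 of hippocampal excitatory neurons, 5 of endothelium and 5 of choroid plexus was called after PB (3, 1, 3 and 0 had an unadjusted p under 0.05). Of these 7, 5, 3 and 0 had a negative sign, so that a negative sign was not confined to the GABA neuron list. Snap25 fills 2 of the 3 neuron entries with such a p, with the same values. In addition, 1 of 10 of oligodendrocytes fell (Opalin), 1 of 5 of microglia rose (Cd68) and the 3 tested of skeletal muscle fell. No marker was at 0 in all animals, and the part of these shifts in the fall of Gabrg1 was not tested.

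By the same measure, the transcripts most like each member were named as a description. Gabra2 was nearest to Cnr1, the cannabinoid receptor of presynaptic terminals (r = 0.828, but 0.446 in animals 1 to 6 and 0.898 in animals 7 to 14), followed by Peg3 (0.485 and 0.858) and Slit2 (0.288 and 0.86). For the other members the values within the series lay between 0.594 and 0.911. Gabra3 and Gabrg3 were both nearest to Atp2b4, a calcium pump of the plasma membrane (r = 0.799 and 0.733), followed by Slc8a3 and Slc7a3 for Gabra3 and by Dlg1 and Lgi2 for Gabrg3. Gabrb1 was nearest to Myo9a (r = 0.873), then Tnks and Pak3, and Gabrb2 to Nav3 (r = 0.784), then Adcy1 and Tanc2. Gabrg1 was nearest to Uhmk1 (r = 0.747), followed by Rlim (r = 0.733), which fills 2 entries of the table with the same values. All were over the same 41 animals and libraries.

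The rest of the receptor family was compared in the same way. Of 8 other subunits that could be tested 1 was called after PB, where 5.39% of all transcripts were. It was Gabrr2, a rho subunit of low count, with 23.91 against 33.34 normalized counts (log2 -0.46, SE 0.14, edgeR adjusted p = 0.0492). Unlike the members, Gabrr2 also passed the study's fold limit, and 0.605% of all transcripts met both limits. The 3 with the smallest p also included Gabrd, the delta subunit of receptors outside the synapse (log2 -0.18, adjusted p = 0.348), and Gabra5 (log2 -0.05, adjusted p = 0.409). None of the 8 was called by edgeR after LEV or between the drugs. At an unadjusted p under 0.05 there were 0 and 2, beside 5.84% and 19.6% of all transcripts. The median log2 difference of the 8 after PB was -0.06, with 6 lower and 2 higher. Gabra4, between the members Gabrb1 and Gabra2 on chromosome 14, differed by -0.08 (adjusted p = 0.468). Gabra6, Gabrr1, Gabrr3 and Gabre were too low to test, with at most 26 counts in an animal.

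Proteins that assemble, move or anchor the receptor were a second list, with 37 tested transcripts of 32 genes. After PB 4 of them fell and none rose, and 29 of 37 had a negative sign, with a median log2 difference of -0.03. Of all transcripts 3.46% fell and 6277 of 13062 had a negative sign. At an unadjusted p under 0.05 there were 11 of the 37, where 20.2% of all transcripts passed. The 4 were Nsf, the ATPase that binds receptor subunits and takes part in their trafficking (4690 against 5400, log2 -0.20, SE 0.04, edgeR adjusted p = 0.00391), Trak2, an adaptor between kinesin and cargo (log2 -0.14, adjusted p = 0.00647), Gabarapl1, of the family of receptor-associated proteins (log2 -0.14, adjusted p = 0.023), and Iqsec3, a partner of the scaffold gephyrin (log2 -0.11, adjusted p = 0.0437). None of the 4 passed the fold limit. No transcript of the list was called by edgeR after LEV. There 3 had an unadjusted p under 0.05, beside 5.84% of all transcripts. Nsf and Gabarapl1 were also lower after PB than after LEV (log2 -0.20 and -0.17, edgeR adjusted p = 0.00595 and 0.00817). They were the 2 of 37 called in that comparison, where 4.45% of all transcripts were called.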

How the data were processed

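Hippocampal RNA libraries of 42 rat pups were analysed, 1 per animal, with the VEH animal labelled as excluded left out of the main fit. The authors extracted RNA with Trizol, made libraries with a NEBNext Ultra kit, aligned reads to rn6 with STAR 2.7.3a and deposited estimated counts per RefSeq transcript from the Partek E/M algorithm, with no batch correction (13.7% of values are not whole, but those of the 6 members are). Strand and transcript lengths are not given in the sources used here, so levels were not compared between genes. The authors' deposited comparison table (p-values, false discovery rates, ratios, fold changes and group means) was not used.

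Counts were rounded and fitted in R 4.3.3 with edgeR 4.0.16 (TMM, filterByExpr, glmQLFit, glmQLFTest), with treatment and series of sample code in one model of 41 animals. P-values were adjusted by Benjamini-Hochberg over 13062 transcripts and called under 0.05. The study removed batch and batch-by-treatment effects before DESeq2. Here the batch was a term of the model. The test was also run on counts simulated with its own fitted spread and no litter effect. That run cannot show how shared litters affect the test. At least 49 counts stood behind every value of a member, and the intervals give the precision this depth and the spread between animals allow. Pups of 1 group came from different litters per the labels. The paper states that treatments were balanced within litter, so the 3 groups share litters. The main model holds no term for litter.

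The members, the lists of other subunits, partners and markers, and the tests were chosen with earlier results of these data known. Named were all 6 members, the called genes of the 2 receptor lists and their 3 smallest p-values after PB, and the 3 transcripts most like each member. One marker of the neocortex list is not reported here and was left out of its values. Marker genes named beside Gabrg1 were chosen after their values were seen. Alternatives were DESeq2 1.42.0, its size factors, no filter, no series term, a series-by-treatment term, either series by itself, a block for the animal number, the excluded VEH animal kept, a fit of just the 2 groups compared, counts summed per symbol, and each animal left out.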

Additional observations from a re-analysis of the deposited data

Results flagged for a closer look

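Of 36 sets of animals (6 members, 3 treatments, 2 series), 5 held a value far from the rest. Chance gives about 1 in 20 for independent sets of normal values. The 6 members were measured in the same animals and several vary together, so 5 of 36 is not shown to be unusual. All 5 were in animals 7 to 14. Gabra2 stood at 1043 in VEH animal 9, with the nearest of the 7 animals at 1526. Gabra3 stood at 380.9 in PB animal 9, with the nearest of 8 at 268.9. In the LEV group, Gabrb2 stood at 163.4 in animal 8 (nearest 217.5), Gabrg1 at 687 in animal 11 (nearest 607.1) and Gabrg3 at 96.9 in animal 9 (nearest 75.17).

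A drug's log2 difference from VEH differed between animals 7 to 14 and animals 1 to 6 at an unadjusted p under 0.05 in 4 of 18 edgeR interaction tests, and in none after adjustment. The differences were 0.48 for Gabrb1 and 0.25 for Gabrg1 after PB (adjusted p = 0.432 and 0.403), and 0.56 for Gabrb1 and 0.33 for Gabrg1 after LEV (adjusted p = 0.272 and 0.165). The comparisons share the VEH animals.

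In the VEH animal that the main comparisons left out, which the paper excluded for its unusual coverage, Gabrb2 stood at 365.6. The highest of the other VEH animals was at 282.4. In the same animal Gabra2, at 772.1, and Gabrg1, at 292.3, lay below the lowest of them, at 1043 and 452.2.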

How the results depend on the processing

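Over 11 alternatives, 180 of 198 values of the members kept their direction and side of the threshold. For PB against VEH, Gabrg1 was no longer called with no series term (log2 -0.21, adjusted p = 0.164), in animals 7 to 14 alone (-0.12, adjusted p = 0.443) and with the excluded VEH animal kept (-0.18, adjusted p = 0.223), and the cause was not tested. DESeq2 gave it an adjusted p of 0.00615. For LEV against VEH, Gabrg1 was called in animals 1 to 6 alone (-0.31, adjusted p = 0.0137) and turned to 0.013 in animals 7 to 14 alone. Other signs turned in members that were never called. In animals 7 to 14 alone these were Gabra2 (0.019 after PB, 0.0093 after LEV), Gabrb1 (0.167 and 0.048) and Gabrg3 after PB (0.091). In animals 1 to 6 alone they were Gabrb2 (-0.039 after PB, -0.052 after LEV) and Gabrg3 in PB against LEV (-0.11). With the excluded animal kept they were Gabra2 (0.052 and 0.0026) and Gabrb2 after LEV (-0.042). Gabra2 after PB was 0.0044 with no series term and 0.0015 with only those 2 groups. With each animal left out, Gabrg1 ran from -0.27 to -0.21 after PB, from -0.17 to -0.10 after LEV and from -0.12 to -0.08 in PB against LEV, and signs turned for Gabra2 after PB (-0.042 to 0.024), Gabrg3 after PB (-0.084 to 0.0030) and Gabrb2 after LEV (-0.013 to 0.058).

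Animals of one number were not more alike in a way that these data show. The 40 pairs of one number had correlations of -0.351 to 0.282 (median -0.0392), with 11 over 0.1. Of 41 animals 1 correlated best with its own number. A litter effect could be too small to show in such correlations, so whether a number marks a litter was not settled. With the number as a block, Gabrg1 was at -0.24 after PB (adjusted p = 0.0414), -0.13 after LEV and -0.11 in PB against LEV, and the transcripts called numbered 447, 0 and 457. All transcripts called for PB against VEH, 704 in the main fit, numbered 410 with no series term, 64 in animals 1 to 6 alone, 392 with the excluded animal, and 442 (without PB animal 7) to 891 with 1 animal left out. For LEV against VEH, 1 became 10 with DESeq2, 2 with no filter, 17 with a series-by-treatment term, 346 in animals 1 to 6, 6 in animals 7 to 14, 0 with no series term, with the excluded animal or with only those 2 groups, and 0 to 5 with 1 animal left out. For PB against LEV, 581 became 288 with no series term, 81 in animals 1 to 6, 132 in animals 7 to 14, 174 with the excluded animal and 283 (without PB animal 7) to 778 with 1 animal left out.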
